A study of Mus musculus with 14 samples.

Results

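The 33 genes described here act in mitosis and on the spindle, the microtubule machine that parts the chromosomes. They were chosen by name, with earlier results of these data known. They were read through the 45 array probes whose RefSeq accessions belong to them, out of 21352 genes with a symbol on the array. By role they are 4 genes of cyclins and their kinase (Ccna2, Ccnb1, Ccnb2, Cdk1), 1 transcription factor (Foxm1), 5 other mitotic kinases (Plk1, Aurka, Aurkb, Melk, Pbk) and 3 kinases of the spindle checkpoint (Bub1, Bub1b, Ttk). A further 6 belong to the kinetochore and centromere (Cenpa, Cenpe, Cenpf, Ndc80, Nuf2, Ska1). Spindle motors and microtubule proteins number 9 (Kif11, Kif20a, Kif22, Kif23, Tpx2, Nusap1, Prc1, Aunip, Sapcd2), chromosome proteins 3 (Top2a, Mki67, Birc5) and partners of the anaphase-promoting complex 2 (Cdc20, Ube2c).

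Expression was measured on one-colour microarrays in macrophages that had been grown in M-CSF from the marrow of female C57BL/6 mice aged 8 weeks; M-CSF is a growth factor on which such macrophages divide. All mice carried LysM-Double-Cre, in which the promoter of the lysozyme gene Lyz2 directs Cre recombinase to myeloid cells, granulocytes included. Transgenic mice (LysM-Double-Cre x TFEB transgene+) also carried a transgene for TFEB, a transcription factor of lysosomal and autophagy genes, and wild-type here means LysM-Double-Cre x TFEB transgene- mice. After 1 week of differentiation the cells were replated and spent 24 h in DMEM only (control) or in DMEM with medium conditioned by EO771 tumour cells plus tumour lysate (tumour material). The labels thus ask what the transgene does in each medium and what tumour material does in each genotype. There are 3 replicates of wild-type control, wild-type tumour and transgenic control and 2 of transgenic tumour, on 14 arrays, with 3 of these arrays repeats of a replicate 3. Nothing in the labels says that replicates came from separate mice, so p-values measure the spread between these samples. Transgenic tumour replicate 1 was not analysed here.

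The mitotic genes are a wave of transcripts that rises as a cell leaves DNA replication and enters division. In resting cells the DREAM complex keeps them low. In dividing cells B-Myb (Mybl2) and Foxm1 join the MuvB proteins of that complex and switch them on, and NF-Y helps from CCAAT boxes. MuvB proteins bind the promoters at a short element, the cell cycle genes homology region or CHR, with the letters TTTGAA. Such transcripts are widely used to gauge how many cells of a culture are dividing.

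Promoters of 7 members carry the CCAAT box and the CHR in close order just before the gene start, and are shown here because these are the elements through which the wave is known to be driven. Each line gives the 80 bases that end at the base before the start, on the gene's strand, from the RefSeq promoter table with build GRCm38.p6. Capitals mark TTTGAA and CCAAT, or TTCAAA and ATTGG where the match lies on the other strand.
Ube2c (chr2:164769849-164769928, plus strand): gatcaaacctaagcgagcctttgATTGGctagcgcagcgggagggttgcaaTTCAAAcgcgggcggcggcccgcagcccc
Cdc20 (chr4:118437344-118437423, minus strand): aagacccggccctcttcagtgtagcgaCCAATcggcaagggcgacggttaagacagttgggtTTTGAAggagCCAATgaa
Prc1 (chr7:80294396-80294475, plus strand, 1 of its 2 starts): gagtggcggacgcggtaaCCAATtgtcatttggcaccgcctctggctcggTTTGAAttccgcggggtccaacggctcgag
Kif22 (chr7:127042421-127042500, minus strand): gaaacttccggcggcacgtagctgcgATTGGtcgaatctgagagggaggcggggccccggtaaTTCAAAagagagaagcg
Cdk1 (chr10:69352913-69352992, minus strand): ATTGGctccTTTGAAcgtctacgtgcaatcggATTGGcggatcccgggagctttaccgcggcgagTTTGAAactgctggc
Top2a (chr11:99024190-99024269, minus strand): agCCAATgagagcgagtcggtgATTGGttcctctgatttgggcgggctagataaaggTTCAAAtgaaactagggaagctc
Kif11 (chr19:37376302-37376381, plus strand): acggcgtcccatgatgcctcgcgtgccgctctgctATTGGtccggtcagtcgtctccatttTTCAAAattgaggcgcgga

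Of the 33 members, 26 were matched in that table by symbol. Ccna2, Pbk, Tpx2, Foxm1, Aurkb, Ska1 and Kif20a were not. In the 250 bases before the start, on either strand, CCAAT was found in 19 of the 26 (73.1%) and in 37.5% of the 27025 genes of the table. TTTGAA was found in 9 of them (34.6%) and in 18.3% of all genes, and each of these 9 also held a CCAAT (6.45% of all genes hold both). The variant TTCGAA was found in Bub1b and Top2a, against 1.55% of all genes. In Ube2c, Cdc20, Prc1, Kif22, Cdk1, Top2a, Kif11 and Mki67 the TTTGAA nearest the start was preceded by a CCAAT whose first base lies 26 to 43 bases upstream of its own. That arrangement, with limits taken from the members themselves, was found in 164 genes of the table (0.607%). Over the table's whole 300 bases, a window added after the first was seen, TTTGAA was found in 17 of 26 members and 20.2% of all genes. A match is a match of letters and no more.

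**Figure D1:**
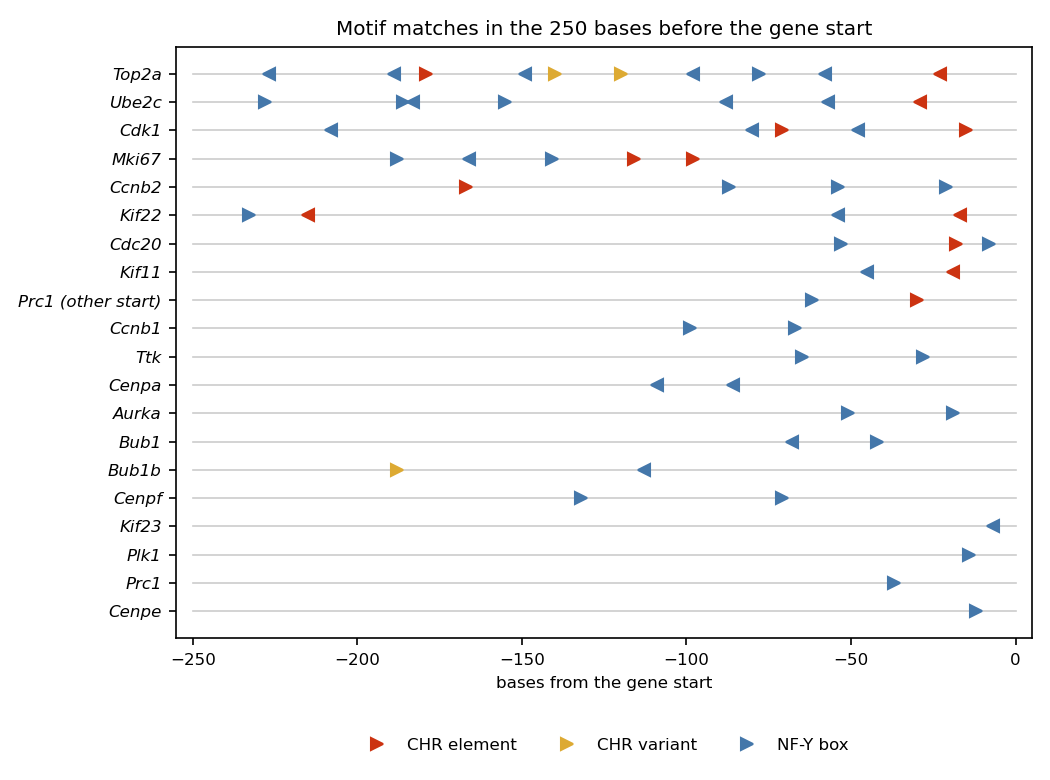
Positions of motif matches in the 250 bases before the gene start, in bases from the start (x axis), for the member promoters with at least 1 match (y axis; Prc1 has 2 starts). Red triangles are the CHR element, yellow its variant, blue the NF-Y box, and a triangle points along the strand of the match; in 8 members a blue triangle precedes the red one nearest the start by 26 to 43 bases.

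A level below is the log2 of a probe's signal over the 75th percentile of its array, so 0 is that percentile and each unit is a doubling. Levels of different genes come from different probes and are not set against each other. A gene was tested where every array of some group read its probe well above background, and called where the Benjamini-Hochberg adjusted p of a limma model over all 15834 such genes was under 0.05. Of the members, 25 were tested and 10 of these were above background on all 14 arrays (Ccnb2, Birc5, Mki67, Aurka, Plk1, Cdc20, Cenpe, Kif22, Prc1, Ube2c). Another 8 passed through transgenic control alone, the group where they are high, so their difference from the other groups is partly set by the filter. The remaining 8 were not tested. Aurkb, the kinetochore protein Cenpf and the checkpoint kinase Ttk were above background on no array, and Cdk1, Kif11, Kif23, Ndc80 and Nuf2 on the arrays of transgenic control replicates 2 and 3 only. For a gene that was dim on every array of 1 group, a fold is a lower bound, set against the dimmest signal well above background.

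Between 35.5% and 40.2% of spots per array were well above background, none was saturated, and the 75th percentile of probe signals was 69.9 to 119. In control medium the level of Tfeb itself averaged 1.15 ± 0.08 (SD, n = 3) without the transgene and 1.44 ± 0.28 (n = 3) with it, a log2 difference of 0.31 (SE 0.13, adjusted p = 0.161). With tumour material it was higher in transgenic cells by 0.71 (SE 0.15, adjusted p = 0.0226). The macrophage markers Csf1r, Adgre1 and Cd68 were well above background on every array, as were 14 or 15 of the 15 macrophage markers on each; Lyz2, whose promoter drives the Cre, was the exception and was above background on 4 of 14 arrays. The array of transgenic control replicate 1 stood apart: it correlated with its group at 0.955 to 0.958, against 0.974 or more for any other pair of arrays within a group. Results that rest on it are given with and without it.

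In control medium most of the tested mitotic genes were higher in transgenic than in wild-type macrophages, usually by several fold. Of the 25 tested members, 20 were higher and 0 lower, where 3.63% of all tested genes were higher and 5.26% lower. The median log2 difference was 2.15 (2.08 with the 5 members that were dim in wild-type cells at their bound), against -0.03 over all tested genes. All 3 transgenic replicates lay above all wild-type ones for 23 members, against 8.91% of all tested genes. These counts and the median include the 8 members that passed the filter through transgenic control alone, whose difference is partly set by the filter. Because the members were chosen with earlier results of these data known, setting them against all genes, here and below, is a description only. Ccnb1, Tpx2, Bub1b, Cenpa and Cenpe did not pass the test. Of the 17 members that passed the filter through several groups 12 were called, from 5 roles: cyclins, mitotic kinases, motors and microtubule proteins, chromosome proteins and partners of the anaphase-promoting complex. The calls for the kinetochore (Ska1), the checkpoint (Bub1) and the transcription factor (Foxm1) rest on genes that passed through transgenic control alone. Counted by array, 17 to 20 of the 33 members were above background in wild-type control and 25, 30 and 30 in transgenic control replicates 1, 2 and 3.

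**Figure D2:**
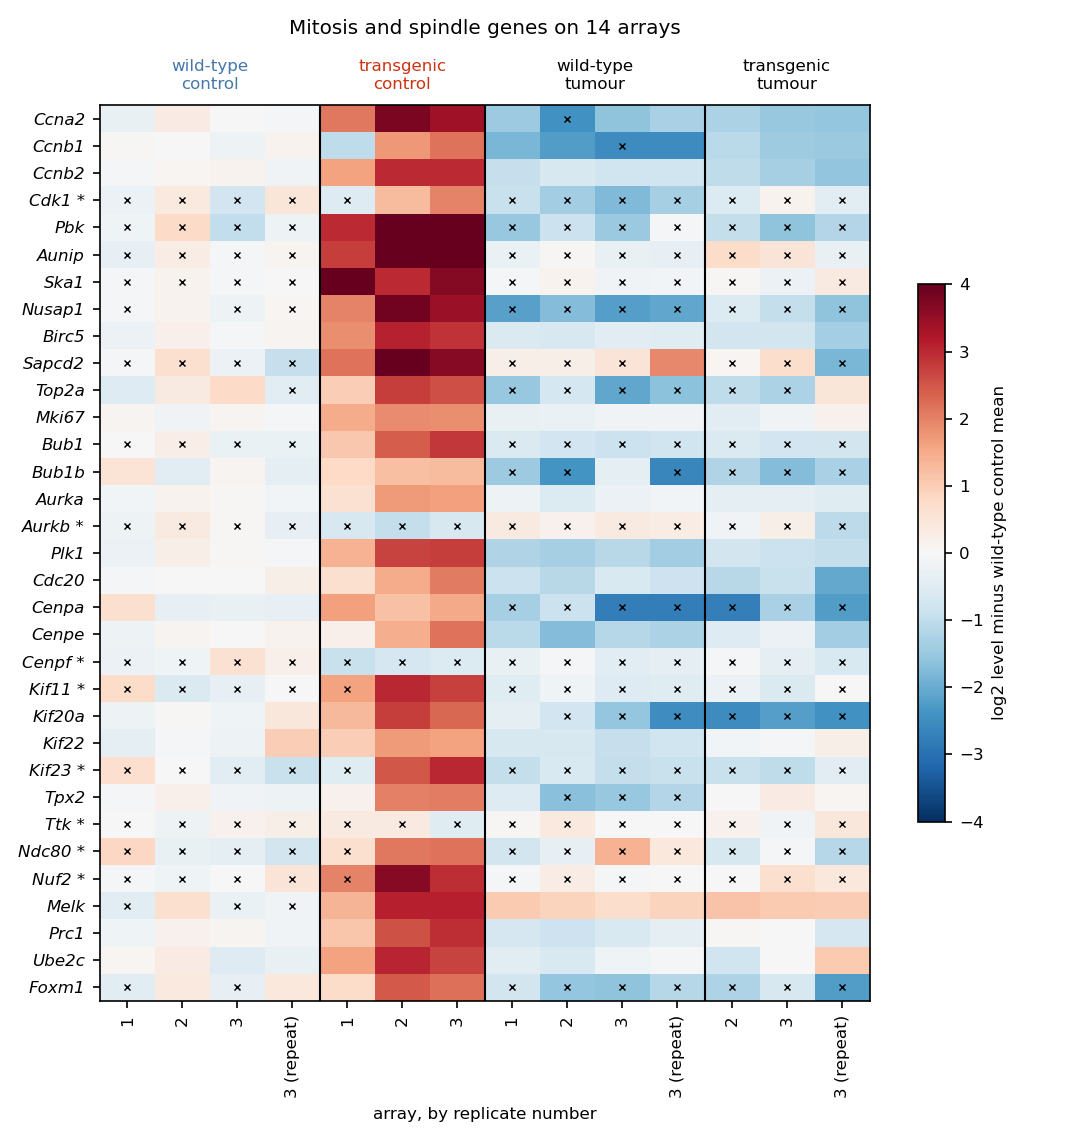
Log2 level of each of the 33 members on each of the 14 arrays, minus the member's mean in wild-type control, with colours ending at 4 either way. Crosses mark probes not well above background and asterisks members that were not tested; the columns of transgenic control replicates 2 and 3 are the reddest, replicate 1 of that group is paler, and the tumour arrays of both genotypes are mostly blue or near white.

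Among the cyclins, Ccna2 (cyclin A2, which acts from DNA replication into early mitosis) was at -0.28, 0.33 and -0.04 in wild-type control replicates 1, 2 and 3 and at 2.11, 3.77 and 3.40 in transgenic control. With tumour material it was at -1.45, -2.43 and -1.44 in wild-type and at -1.28 and -1.53 in transgenic replicates 2 and 3. The transgenic control values were clear of all others, and the 2 tumour groups overlapped. The difference in control medium was 3.08 (SE 0.36, an 8.44-fold difference, adjusted p = 0.000372). Ccnb2, a B-type cyclin, was higher by 2.51 (SE 0.28, adjusted p = 0.000319). Ccnb1, the cyclin that with Cdk1 drives entry into mitosis, was at 0.73, 0.68 and 0.67 in wild-type and -0.34, 2.42 and 2.88 in transgenic control. Its transgenic replicate 1 lay below every wild-type one and the other transgenic replicates far above, so that the difference of 0.92 (95% interval -0.29 to 2.13) did not pass (adjusted p = 0.331). Without that replicate it was 1.94 (adjusted p = 0.000176). With tumour material Ccnb1 stood at -1.14, -1.56 and -1.82 in wild-type and -0.39 and -0.76 in transgenic cells. Cdk1, the kinase itself, was too dim to test, at -2.88, -2.26 and -2.80 in wild-type control and -3.17, -1.38 and -0.66 in transgenic control. It was not well above background on any tumour array (-3.54, -4.02 and -4.20 in wild-type, -3.18 and -2.78 in transgenic cells). Foxm1, which switches on late mitotic genes, was at -2.31, -1.48 and -1.82 in wild-type and -1.15, 0.57 and 0.35 in transgenic control, a difference of 1.74 (SE 0.45, adjusted p = 0.0337), with 2 of 4 wild-type arrays above background. On tumour material it was dim on every array, at -2.62, -3.40 and -3.23 in wild-type and -3.10 and -3.31 in transgenic cells.

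All 4 tested mitotic kinases were higher in transgenic control cells. Plk1, which drives centrosome maturation and spindle assembly, was at 0.30, 0.75 and 0.52 in wild-type and 1.92, 3.21 and 3.29 in transgenic control. With tumour material it was at -0.68, -0.81 and -0.72 in wild-type and -0.22 and -0.38 in transgenic cells. In both media the transgenic replicates lay above the wild-type ones, by 2.27 (SE 0.27, adjusted p = 0.000468) in control medium and, short of the threshold, by 0.31 (SE 0.33, adjusted p = 0.665) with tumour material. Pbk, a kinase of dividing cells, was dim outside transgenic control, where it reached -0.34, 1.31 and 1.18. Its other values were -3.48, -2.55 and -3.90 in wild-type control, -4.81, -4.16 and -4.09 in wild-type tumour and -4.28 and -4.70 in transgenic tumour replicates. It was at least 9.38-fold higher in transgenic control cells (adjusted p = 0.000302). Aurka, the kinase of spindle poles, was higher by 1.31 (SE 0.23, adjusted p = 0.00456). Melk, a kinase that peaks in mitosis, was at -2.61, -1.50 and -2.35 in wild-type and -0.79, 0.95 and 0.97 in transgenic control, 2.55 higher (SE 0.38, adjusted p = 0.00173). It was above background on 1 of 4 wild-type control arrays, so that size rests mostly on signals below background. Aurkb, the kinase of the chromosomal passenger complex, was not well above background on any array and had no measured difference. Its values ran from -4.67 to -4.12 in wild-type control, -4.30 to -4.12 in wild-type tumour, -5.43 to -5.12 in transgenic control and -4.87 to -4.62 in transgenic tumour.

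The spindle checkpoint and the kinetochore were less well covered, with 5 of their 9 members tested. Bub1, a checkpoint kinase at the kinetochore, was at least 2.79-fold higher in transgenic control cells (adjusted p = 0.00155). Bub1b, which holds back the anaphase-promoting complex, was at -0.86, -1.81 and -1.52 in wild-type and -0.61, -0.20 and -0.15 in transgenic control. Those groups did not overlap, but the difference of 1.15 (SE 0.44) did not pass (adjusted p = 0.126). Its tumour values were -2.86, -3.78 and -2.88 in wild-type and -2.60 and -2.92 in transgenic cells. Ska1, which couples kinetochores to microtubule ends, was dim outside transgenic control, at -4.41, -4.19 and -4.36 in wild-type control, -4.42, -4.17 and -4.44 in wild-type tumour and -4.28 and -4.25 in transgenic tumour. In transgenic control it was at -0.32, -1.34 and -0.64, at least 3.62-fold higher than in wild-type cells (adjusted p = 6.54e-06). Replicate 1, the lowest of its group for 23 of the 25 tested members, was the highest for Ska1. Cenpa, the histone H3 variant that marks centromeres, was at -1.06, -2.01 and -1.99 in wild-type and -0.05, -0.52 and -0.16 in transgenic control. It too had its highest transgenic value in replicate 1, and its difference of 1.55 (SE 0.48, adjusted p = 0.0656) did not pass. With tumour material Cenpa was dim on every array, at -3.02, -2.53 and -4.46 in wild-type and -4.43 and -3.45 in transgenic cells. Cenpe, the kinetochore motor, was 1.21 higher (SE 0.38, adjusted p = 0.0683) and 1.73 higher without replicate 1 (adjusted p = 0.00423). Ndc80, the main microtubule binder of the kinetochore, was not tested: it was at -2.67, -3.81 and -4.05 in wild-type control, -2.88, -1.40 and -1.33 in transgenic control, -4.24, -3.83 and -2.60 in wild-type tumour and -4.16 and -4.10 in transgenic tumour. Its partner Nuf2 was at least 2.24-fold higher in transgenic control, and Ndc80 at least 1.68-fold, on 2 of 3 arrays above background each.

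Of the motors and microtubule proteins 6 of 7 tested were higher. Nusap1, which bundles spindle microtubules near chromatin, was at -2.33, -2.10 and -2.30 in wild-type and -0.27, 1.62 and 1.20 in transgenic control, 3.09 higher (SE 0.38, adjusted p = 0.000515), with 1 of 4 wild-type arrays above background. It was dim on all tumour arrays, at -4.41, -3.99 and -4.38 in wild-type and -2.79 and -3.52 in transgenic cells. Aunip, a centrosomal partner of Aurora A, showed the same one-sided detection, at -4.27, -3.66 and -3.93 in wild-type control and -1.17, 1.19 and 1.08 in transgenic control. Its tumour values were -4.21, -3.91 and -4.26 in wild-type and -3.21 and -3.84 in transgenic cells, all dim, and it was at least 7.93-fold higher in transgenic control cells (adjusted p = 0.000275). Sapcd2, which helps orient the spindle, was at least 6.84-fold higher (adjusted p = 0.00936). Prc1, the bundler of the central spindle, was 2.17 higher (SE 0.34, adjusted p = 0.00232), and the motors Kif20a and Kif22, which serve cytokinesis and chromosome positioning, were 2.10 (SE 0.45, adjusted p = 0.0144) and 1.31 (SE 0.24, adjusted p = 0.00682) higher. Tpx2, which activates Aurora A on the spindle, was at -1.21, -0.97 and -1.34 in wild-type and -1.004, 0.84 and 0.89 in transgenic control. Its replicate 1 lay among the wild-type values, and the difference of 1.43 (SE 0.41) had an adjusted p of 0.0511, or was 2.08 (adjusted p = 0.000543) without that replicate. Kif11, the motor that pushes spindle poles apart, was not tested. It stood at -3.32, -4.65 and -4.22 in wild-type control, at -2.44, -1.03 and -1.32 in transgenic control and between -4.55 and -4.23 in the tumour replicates, and was at least 2.03-fold higher in transgenic control. Kif23, the motor of the central spindle, was at least 1.79-fold higher there.

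All members of the last roles, chromosome proteins and partners of the anaphase-promoting complex, were higher in transgenic control cells. Birc5 (survivin, of the chromosomal passenger complex) was at 1.82, 2.26 and 2.08 in wild-type and 3.90, 5.14 and 4.95 in transgenic control, 2.59 higher (SE 0.26, a 6.01-fold difference, adjusted p = 0.000179). Mki67, the proliferation marker that coats mitotic chromosomes, was at 1.78, 1.51 and 1.68 in wild-type and 3.14, 3.53 and 3.50 in transgenic control, 1.73 higher (SE 0.16, adjusted p = 8.66e-05). Both had the transgenic values clear of the wild-type ones. Top2a, which untangles sister chromatids, was at -2.04, -1.18 and -1.38 in wild-type and -0.55, 1.24 and 1.04 in transgenic control, 2.08 higher (SE 0.56, adjusted p = 0.0399). That call was lost when any 1 of 8 replicates was left out. Cdc20, which activates the anaphase-promoting complex, was at 1.62, 1.67 and 1.80 in wild-type and 2.34, 3.17 and 3.78 in transgenic control, 1.34 higher (SE 0.30, adjusted p = 0.0178). Ube2c, the ubiquitin-conjugating enzyme of that complex, was at 0.25, 0.51 and -0.24 in wild-type and 1.77, 3.21 and 2.89 in transgenic control, 2.53 higher (SE 0.43, adjusted p = 0.0038).

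Leaving out transgenic control replicate 1 raised the median to 2.71 and the calls to 23 of 25. Leaving out wild-type control replicate 3, with its 2 arrays, lowered the calls to 13. The arrays lay on 2 slides. Within slide 1 the median was 1.79 with 17 members called. On slide 2, with 1 residual degree of freedom, the median was 2.84. There 1 repeat array of wild-type control replicate 3 was set against transgenic control replicate 3 alone, too few samples for calls.

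**Figure D3:**
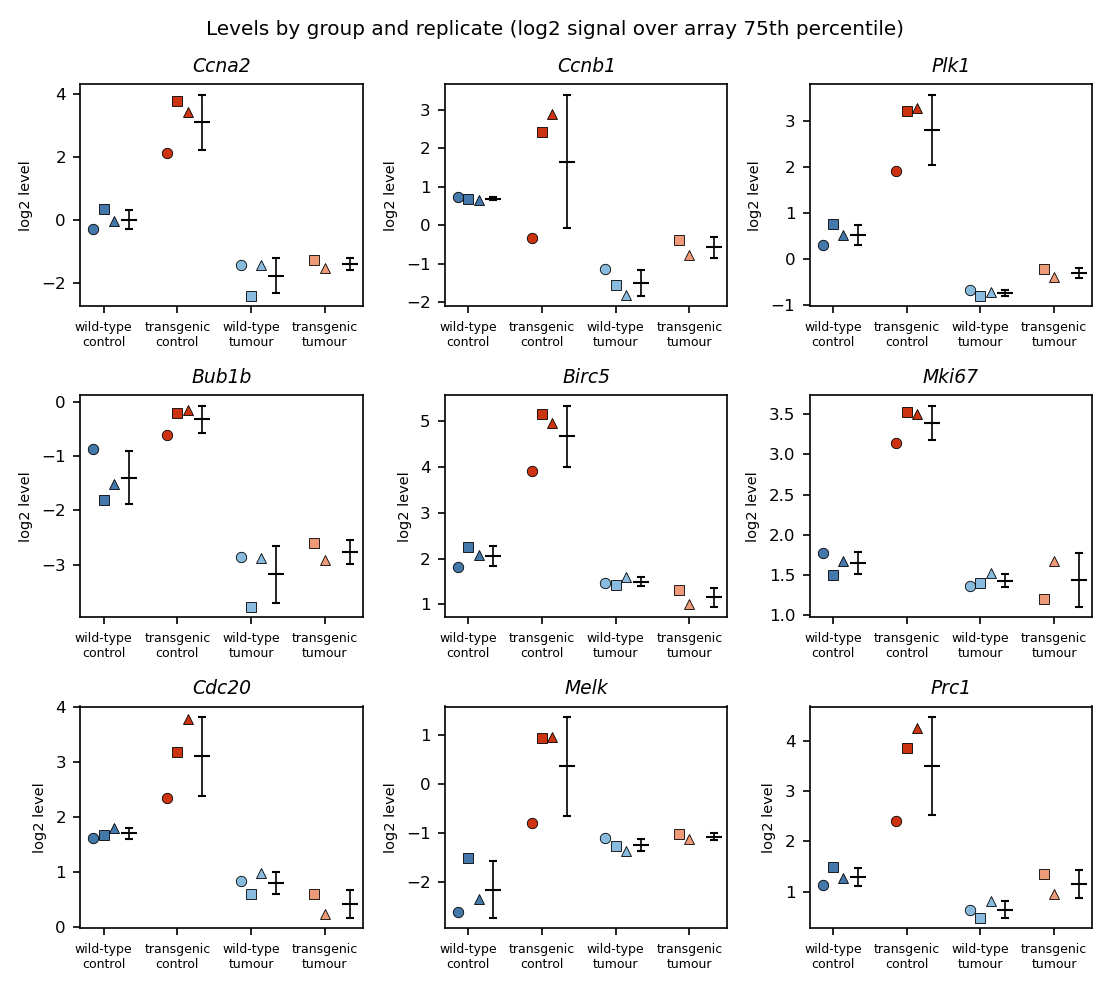
Log2 level (y axis, 0 is the 75th percentile of the array) of 9 members in the 4 groups; circles, squares and triangles are replicates 1, 2 and 3, repeat arrays averaged, and bars give mean ± SD. Transgenic control is the highest group in all 9, its replicate 1 is the lowest of the 3 and, for Ccnb1, lies below wild-type control; Melk is the 1 gene shown whose wild-type tumour replicates all lie above wild-type control.

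Some cell type markers also differed between the genotypes in control medium. In transgenic control, 5 of the 10 tested markers of myeloid progenitors and granulocyte precursors were higher and 0 lower. Of 14 tested macrophage markers 4 were lower and 0 higher. Over all tested genes 3.63% were higher and 5.26% lower. The summed signal of the progenitor markers, in multiples of the 75th percentile, was 17.1 to 21.8 on the wild-type control arrays and 148.5, 49.1 and 52.5 in transgenic control replicates 1, 2 and 3. Mpo, the myeloperoxidase of such precursors, was at 2.07, 2.82 and 2.17 in wild-type and 6.12, 4.14 and 4.49 in transgenic control, and the stem cell factor receptor Kit at 0.02, -0.31 and 0.28 against -0.30, 2.62 and 2.64. Kit did not pass (1.54, SE 0.53, adjusted p = 0.097), and it stayed at 2.78 and 2.69 in transgenic tumour replicates 2 and 3. Of the 10 tested progenitor markers 9 had positive differences and 1, Cd34, a negative one (-0.39, adjusted p = 0.654). Flt3 was dim on every array and was not tested. Summed neutrophil granule markers were 379.5 to 477 in wild-type control and 773, 207 and 243 in transgenic control. Replicate 1 had the highest progenitor and neutrophil sums of its group and the lowest mitotic levels: the mean of the 10 always-detected members lay 1.15 above wild-type control there and 2.26 and 2.37 above it in replicates 2 and 3. Summed macrophage markers were 3175 to 4074 in wild-type and 2626 to 3087 in transgenic control. Of 10 T, NK and B cell markers on the array, 3 to 5 were above background per control array, among them Cd3e, Nkg7 and Cd79b on all 14 arrays, while Cd3g, Cd3d, Ms4a1, Cd79a and Pax5 were dim on every array. Markers of erythroid cells and megakaryocytes summed to 76.5 to 101 in wild-type and 36.0 to 63.7 in transgenic control. Among the 3 of these that were tested, Pf4 was lower in transgenic control cells by a log2 difference of -0.80 (SE 0.16, adjusted p = 0.0103), and Epor (0.34) and Gp9 (-0.26) did not pass. Fibroblast and epithelial markers summed to 2.02 to 28.6 in wild-type and 1.42 to 12.1 in transgenic control. Of these 1 of 5 tested, Col3a1, was lower in transgenic cells (-4.08, SE 1.03, adjusted p = 0.0309). Its replicates overlapped, at 1.47, -2.95 and 1.73 in wild-type and -4.85, -4.33 and -1.31 in transgenic control. It was above background on 1 of 3 transgenic control arrays. The call was lost without wild-type control replicate 1 or 3, wild-type tumour replicate 3, or transgenic control replicate 1 or 2. The part of other cell types in the result was not tested. In bulk RNA, more dividing cells and more mitotic RNA per cell cannot be told apart.

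**Figure D4:**
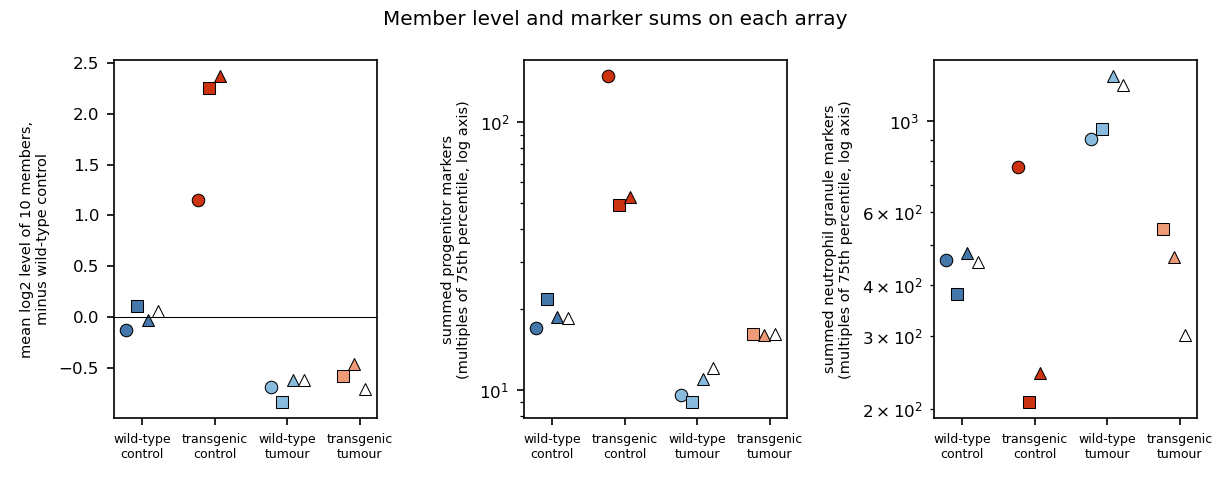
Left, mean log2 level of the 10 members above background on all 14 arrays, minus its wild-type control mean; middle and right, summed signal of progenitor and of neutrophil granule markers in multiples of the array's 75th percentile, on log axes. Circles, squares and triangles are replicates 1, 2 and 3 and open triangles repeat arrays; transgenic control replicate 1 has the lowest member mean (1.15) but the highest progenitor sum (148.5) of its group.

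In wild-type macrophages tumour material lowered 14 of the 25 tested members and raised 0, where it lowered 17.1% and raised 22.6% of all tested genes. The median log2 difference was -0.85 against 0.04 over all tested genes. All tumour replicates lay below all control ones for 19 members, against 26.3% of all tested genes, and above them for 1 (Melk), against 31.8%. The 3 tested cyclins all fell: Ccnb1 by 2.26 on the log2 scale (SE 0.52, adjusted p = 0.00448), Ccna2 by 1.69 (SE 0.33, adjusted p = 0.00169) and Ccnb2 by 0.79 (SE 0.26, adjusted p = 0.033). For these cyclins no tumour replicate reached a control one. Among the others Plk1 fell by 1.26 (SE 0.25, adjusted p = 0.00212) and Bub1b by 1.68 (SE 0.41, adjusted p = 0.00608). Cenpe fell by 1.33 (SE 0.35, adjusted p = 0.0101), Kif20a by 1.30 (SE 0.42, adjusted p = 0.0279) and Tpx2 by 1.19 (SE 0.38, adjusted p = 0.0266). Bub1b, Kif20a and Tpx2 were each above background on 1 of 4 wild-type tumour arrays, so the sizes of their falls rest mostly on signals below background. Cdc20, at 0.83, 0.58 and 0.97 with tumour material, fell by 0.88 (SE 0.28, adjusted p = 0.0258), and Kif22 by 0.84 (SE 0.23, adjusted p = 0.0116). Another 4 were dim on every wild-type tumour array, so that only a bound is given. Top2a (-3.04, -2.23 and -3.40 with tumour material) was at least 2.15-fold lower (adjusted p = 0.0376) and Cenpa at least 1.93-fold (adjusted p = 0.00631). For Foxm1 the bound was 1.56-fold (adjusted p = 0.031) and for Nusap1 1.31-fold (adjusted p = 0.000745). In wild-type control Cenpa was above background on all 4 arrays, Top2a on 3, Foxm1 on 2 and Nusap1 on 1. The bounds of Top2a, Foxm1 and Nusap1 thus rest partly on control signals below background.

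Members with a strong signal in both wild-type groups did not all pass the test. Mki67 was at 1.36, 1.40 and 1.53 with tumour material, a difference of -0.21 (95% interval -0.53 to 0.11, adjusted p = 0.284), and its second probe gave -0.23. Birc5, at 1.46, 1.42 and 1.60, differed by -0.54 (95% interval -1.08 to -0.01, adjusted p = 0.099), Aurka by -0.27 (adjusted p = 0.332) and Prc1 by -0.61 (adjusted p = 0.148). Ube2c, at -0.26, -0.43 and 0.06, differed by -0.23 (adjusted p = 0.688). Its 2 probes disagreed: a dimmer one, above background on 8 of 14 arrays, had a difference of means of -2.86, against -0.38 for the probe used. Pbk, Bub1, Aunip and Ska1 were dim in both wild-type groups and have no fold. Melk and Sapcd2 had positive differences. Melk was at -1.10, -1.26 and -1.36 with tumour material, above all 3 wild-type control replicates, by 0.93 (SE 0.35, adjusted p = 0.0551). In wild-type control it was above background on 1 of 4 arrays. Sapcd2 was at -3.02, -2.34 and -3.56 in control and -2.75, -2.74 and -1.75 with tumour material, on 1 of 4 tumour arrays above background (adjusted p = 0.316); in transgenic cells it was at -0.80, 1.13 and 0.66 in control and -2.90 and -3.53 with tumour material.

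These counts were sensitive to the samples and to the background correction. The number of members called lower was 8 without wild-type control replicate 2, 7 without replicate 3 of that group and 4 without wild-type tumour replicate 3. With normexp background correction it was 4, and the median was -0.31. Within slide 1 the median was -0.82 and within slide 2 -0.99. On slide 2 each wild-type group has 1 array, a repeat of its replicate 3, so the slide 2 median adds no further sample.

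In transgenic macrophages 24 of the 25 tested members were lower with tumour material and 0 higher, where 9.98% of all tested genes were lower and 15.4% higher. This comparison uses the same transgenic control samples as the one between genotypes in control medium, and the wild-type response shares that one's wild-type control samples. The median log2 difference was -3.01, or -2.64 with the 10 members that became dim at their bound, against 0.07 over all tested genes. All tumour replicates lay below all control ones for 24 members, against 20.8% of all tested genes. These counts and the median include the 8 members that passed the filter through transgenic control alone, whose fall is partly set by the filter. The 10 members above background on all 14 arrays were all called lower. Ccna2 fell by 4.74 on the log2 scale (SE 0.43, a 26.7-fold difference, adjusted p = 1.16e-05), Ccnb2 by 3.90 (SE 0.34, adjusted p = 9.4e-06) and Ccnb1 by 2.64 (SE 0.68, adjusted p = 0.0134). Plk1 fell by 3.22 (SE 0.33, adjusted p = 3.24e-05), Aurka by 1.83 (SE 0.28, adjusted p = 0.000511) and Melk by 1.62 (SE 0.46, adjusted p = 0.0236). For Ccnb1 and Melk, control replicate 1 (-0.34 and -0.79) lay just above the tumour values. Birc5, at 1.30 and 1.001 with tumour material, fell by 3.68 (SE 0.32, adjusted p = 8.18e-06), Mki67, at 1.20 and 1.67, by 1.92 (SE 0.19, adjusted p = 2.42e-05) and Top2a, at -2.54 and -1.92, by 2.65 (SE 0.68, adjusted p = 0.0138). Top2a was above background on 1 of 3 transgenic tumour arrays, so the size of its fall rests partly on signals below background. Cdc20, at 0.59 and 0.23, fell by 3.01 (SE 0.37, adjusted p = 0.000112), Ube2c, at -0.64 and 0.68, by 2.51 (SE 0.52, adjusted p = 0.00408), and Prc1 by 2.67 (SE 0.41, adjusted p = 0.000585). Kif22 and Cenpe fell by 1.74 (SE 0.30, adjusted p = 0.00117) and 2.30 (SE 0.46, adjusted p = 0.00312).

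The 10 that became dim with tumour material in transgenic cells span several roles. By bound, Nusap1 was at least 12.4-fold lower (adjusted p = 4.71e-05), Pbk at least 11.3-fold (adjusted p = 2.13e-05), Kif20a at least 10.8-fold (adjusted p = 0.000154) and Aunip at least 8.86-fold (adjusted p = 0.000246). Sapcd2 was at least 7.89-fold lower (adjusted p = 0.00461), Foxm1 at least 6.22-fold (adjusted p = 0.000672) and Cenpa at least 5.80-fold (adjusted p = 0.00157). For Bub1b the bound was 4.99-fold (adjusted p = 0.0114), for Ska1 4.04-fold (adjusted p = 3.33e-06) and for Bub1 3.11-fold (adjusted p = 0.000169). Tpx2, the member that did not pass, was at -1.19 and -0.97 with tumour material, against -1.70, -2.86 and -2.52 in wild-type cells. Its difference was -1.46 (SE 0.50, adjusted p = 0.0501), and transgenic control replicate 1, at -1.004, lay among the tumour values. Leaving out 1 replicate at a time gave 19 to 25 calls. The transgenic tumour arrays all lie on slide 2, where the median was -3.51 against transgenic control replicate 3 alone.

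**Figure D5:**
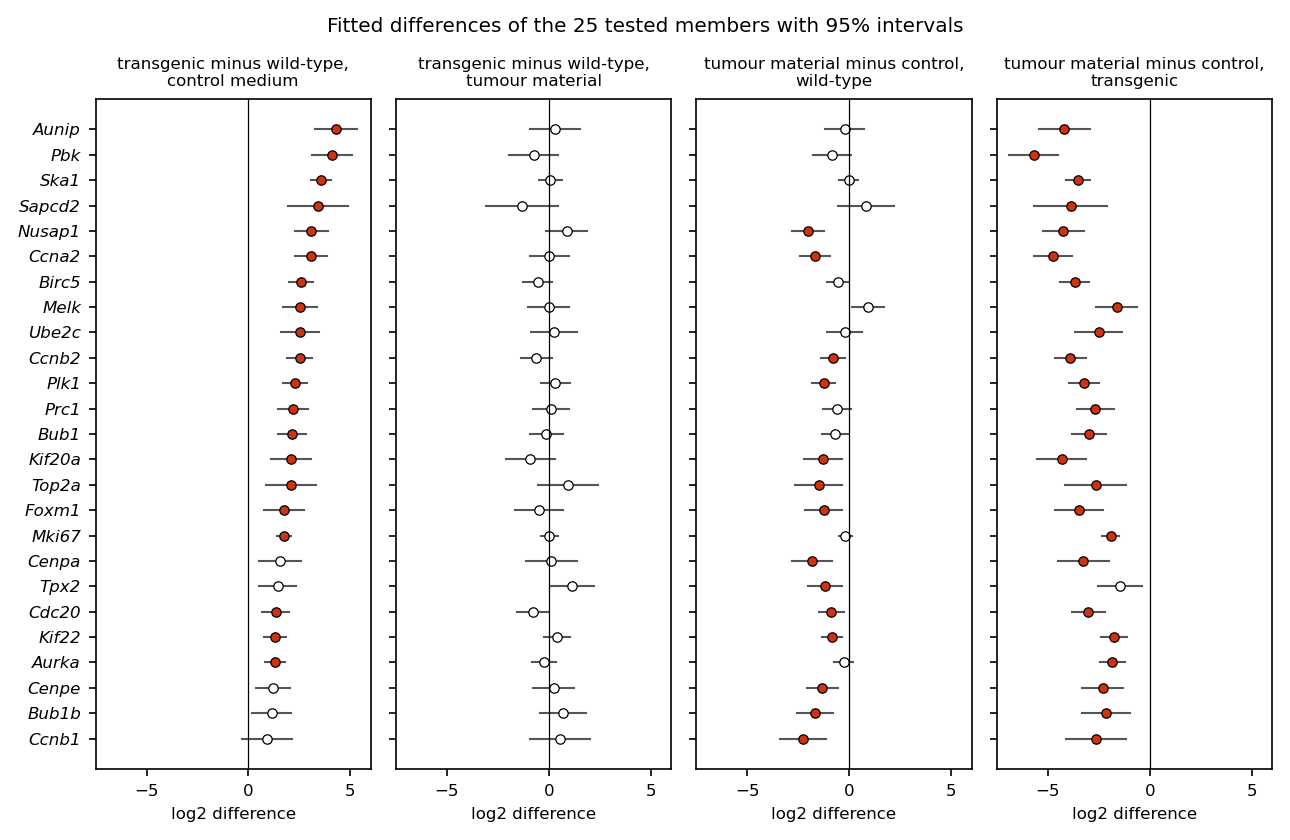
Fitted log2 differences (x axis) of the 25 tested members (y axis, ordered by the first panel) with 95% intervals in 4 comparisons; filled points passed an adjusted p of 0.05 and open points did not. Points lie right of 0 in the first panel, on both sides in the second, mostly left in the third and all left in the fourth; members dim in a group, named in the text, have only a bound there.

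The larger fall of transgenic cells was tested as the difference between both responses. It was negative for 25 of 25 tested members, with a median of -2.21 (0.04 over all tested genes), and 12 passed, where 0.853% of all tested genes passed with that sign and 1.05% with the opposite one. Of the 12, 7 were measured above background on some array of every group: Ccna2, Ccnb2, Birc5, Mki67, Aurka, Plk1 and Cdc20. The other 5 (Pbk, Aunip, Ska1, Sapcd2, Bub1) were dim in wild-type control and transgenic tumour, so the size of their difference is not known. These 5 are among the 8 members that passed the filter through transgenic control alone. For those 8 the negative sign is partly set by the filter. For Birc5 the difference was -3.14 (SE 0.40, adjusted p = 0.00227) and for Ccnb2 -3.12 (SE 0.43, adjusted p = 0.00371). It was smallest for Tpx2 (-0.27, 95% interval -1.64 to 1.09) and Ccnb1 (-0.38, 95% interval -2.24 to 1.48). The number of calls depended on single replicates: it was 18 without transgenic control replicate 1 and 3 without wild-type tumour replicate 3 or without transgenic tumour replicate 3. It was 5 without wild-type control replicate 3 or transgenic control replicate 3, and 7 without wild-type control replicate 1, wild-type tumour replicate 1 or 2, or transgenic tumour replicate 2. The call of Birc5 stood whichever replicate was left out. That of Ska1 stood too, but Ska1 was dim in every group except transgenic control, through which it passed the filter. Its standing is therefore partly set by the filter.

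With tumour material no difference between the genotypes passed. Of 25 members 0 were called either way by limma, and 1 (Tpx2) had an unadjusted p under 0.05, where 2.16% of all tested genes were higher, 2.45% lower and 18.2% under that unadjusted p. The median was 0.08 against 0.01 over all tested genes, and 7 members were dim in both groups. Intervals were wide, with a median reach of 0.997 either side of the estimate on the log2 scale. Ccna2 differed by 0.03 (95% interval -0.91 to 0.96), Mki67 by 0.02 (-0.40 to 0.43), Aurka by -0.25 (-0.85 to 0.35), Cdc20 by -0.79 (-1.58 to 0.01) and Tpx2 by 1.15 (0.08 to 2.23, adjusted p = 0.238). Without transgenic control replicate 1, which enters through the shared spread and the slide term, Ccnb1 (0.88), Nusap1 (1.07) and Tpx2 (1.37) were called higher in transgenic cells, although Nusap1 was dim in both groups. Relative to wild-type control, the mean of the 10 always-detected members was -0.83 to -0.61 on the wild-type tumour arrays and -0.71 to -0.46 on the transgenic ones.

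Markers of other cells moved with tumour material as well. Over all tested genes 9.98% were lower and 15.4% higher in transgenic cells, and 17.1% lower and 22.6% higher in wild-type cells. In transgenic cells 7 of 10 tested progenitor markers were lower and 0 higher, and in wild-type cells 5 were lower and 1 higher. Their sum was 9.02 to 12.1 on wild-type and 16.0 to 16.2 on transgenic tumour arrays. Of the 7 tested neutrophil granule markers 5 were lower and 2 higher with tumour material in each genotype. Ltf, Ngp, Camp, S100a8 and S100a9 were lower (Ngp at least 33.1-fold in wild-type and 39.0-fold in transgenic cells), and Lcn2 (log2 differences of 2.64 and 2.52) and Mmp8 (2.11 and 4.51) were higher. Their sum, which Lcn2 dominates on the wild-type tumour arrays, was 903 to 1283 there and 301 to 546 on the transgenic ones, and does not follow most of the list. The erythroid and megakaryocyte sum was 268 to 329 on wild-type and 234 to 315 on transgenic tumour arrays. Pf4 rose in both genotypes, by 1.82 (SE 0.15) and 2.70 (SE 0.20), and Epor was lower, at least 3.35-fold in wild-type cells and by a log2 difference of -2.30 (SE 0.54) in transgenic cells. The epithelial genes Epcam, Krt8, Krt18, Krt14 and Cdh1 were dim on every array, those given tumour lysate included. Among fibroblast markers Lum and Dcn, proteoglycans of connective tissue, were higher with tumour material in wild-type cells, Lum at least 35.7-fold and Dcn by 3.22 (SE 0.95). Lum was also at least 2.76-fold higher in transgenic cells, and the Dcn difference there of 2.06 did not pass (adjusted p = 0.257). The collagens Col1a1, Col1a2 and Col3a1 did not pass in either genotype. With tumour material all 5 tested fibroblast markers had negative differences between transgenic and wild-type cells (median -2.70). Of these 1, Lum, passed (-4.41, SE 0.16), where 2.45% of all tested genes were lower. The part of these cells or of RNA carried by the lysate was not tested.

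Other mitosis genes form a list of 109 with 108 on the array and 70 tested. In control medium 40 were higher in transgenic cells and 0 lower, with a median of 0.95, where 3.63% of all tested genes were higher and 5.26% lower. For any gene that passed the filter through transgenic control alone, its differences from that group are partly set by the filter. Such genes were not counted apart in this list or among the DNA replication genes. Bounds were at least 7.76-fold for Pimreg (adjusted p = 0.00832), at least 4.88-fold for the cyclin F gene Ccnf (adjusted p = 0.000698) and at least 3.29-fold for Oip5, which helps load Cenpa (adjusted p = 0.000525). Anln, the anillin of the cleavage furrow, was higher by 2.76 (SE 0.42, adjusted p = 0.00215), Shcbp1 by 2.40 (SE 0.40), Iqgap3 by 2.37 (SE 0.26), Cenph by 2.28 (SE 0.37) and Cdca3 by 2.22 (SE 0.49). In wild-type cells tumour material lowered 18 of the 70 and raised 12, with a median of -0.27, where 17.1% of all tested genes were lower and 22.6% higher, so these counts lie near the background. Among those lowered, Ncapg2, a condensin subunit, fell by 2.28 (SE 0.21, adjusted p = 7.25e-06) and Cdc25b, a phosphatase that activates Cdk1, by 1.46 (SE 0.13, adjusted p = 4.24e-06). Pkmyt1 and Wee1, kinases that restrain Cdk1, were lower by at least 6.41-fold and by a log2 difference of -1.53 (SE 0.43). Cdca3 differed by -2.08 (SE 0.45), and bounds were at least 3.58-fold lower for Shcbp1, 2.32-fold for Depdc1b and 2.19-fold for Anln. In transgenic cells 42 were lower and 4 higher, with a median of -1.18, where 9.98% of all tested genes were lower and 15.4% higher. Shcbp1 was at least 17.2-fold lower there, Anln at least 11.3-fold, Pimreg at least 9.60-fold, Depdc1b at least 9.22-fold, Cenph at least 5.85-fold and Ccnf at least 5.50-fold, and Cdca3 fell by 4.37 (SE 0.59) and Iqgap3 by 3.76 (SE 0.32). Between the genotypes with tumour material 2 of the 70 were higher in transgenic cells, Pkmyt1 (at least 5.28-fold) and Oip5 (at least 1.11-fold), and 1 lower, Iqgap3 by 1.42. Over all tested genes 2.16% were higher and 2.45% lower, so these counts lie near the background. The difference between responses passed for 5 of the 70, all negative: Iqgap3, Cenph, Sgo1, Cenpq and Ncapd2. Over all tested genes 0.853% passed with that sign and 1.05% with the opposite one. Of 38 tested DNA replication genes, 20 were higher in transgenic control cells and 0 lower (3.63% and 5.26% of all tested genes). With tumour material 20 were lower and 1 higher in transgenic cells (9.98% and 15.4% of all tested genes). In wild-type cells 10 were lower and 4 higher (17.1% and 22.6% of all tested genes).

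Among 23 tested regulators of cell-cycle transcription, 3 were higher in transgenic control cells and 0 lower, where 3.63% of all tested genes were higher and 5.26% lower. Mybl2, the B-Myb that acts at the CHR with MuvB proteins, was higher by 1.92 (SE 0.20, adjusted p = 0.000228). The pocket protein Rbl1 was higher by 0.77 (SE 0.19) and the MuvB subunit Lin37 by 0.56 (SE 0.15). Tumour material moved Mybl2 in opposite directions, up by 1.16 (SE 0.19, adjusted p = 0.000487) in wild-type and down in transgenic cells, where it fell by 1.78 (SE 0.25, adjusted p = 0.000283). The difference between those responses was -2.94 (SE 0.31, adjusted p = 0.000755). E2f2, an activator of replication genes, fell in both genotypes, by 3.52 (SE 0.26) in wild-type and 2.94 (SE 0.34) in transgenic cells, and E2f7, a repressor of such genes, rose by 1.18 (SE 0.31) and 1.35 (SE 0.40). The MuvB subunit Lin9 fell by 1.33 and 0.95. In wild-type cells Tfdp2, a partner of E2F factors, fell by 1.73 and the pocket protein Rbl2 by 1.28. With tumour material Mybl2 was lower in transgenic than in wild-type cells, by a log2 difference of -1.02 (SE 0.25, adjusted p = 0.0363). In wild-type cells 7 of the 23 rose and 4 fell with tumour material, where 22.6% of all tested genes were higher and 17.1% lower. In transgenic cells 1 rose and 3 fell, where 15.4% were higher and 9.98% lower. The counts that fell lie near these shares.

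Across the 14 arrays the tested members rose and fell together. The Pearson correlation of a member with the mean of the others ran from 0.70 for Melk and 0.78 for Sapcd2 to 0.99 for Bub1 and Plk1. Outside the list, the 12 genes most like the members' mean were Asf1b (0.989), Rrm2, Stmn1, Knstrn, Ncapd2, Cdca5, Cenpk, Arhgef39, Ect2, Cdca8, Slco2b1 and Mcm10 (0.968). These correlations describe 14 arrays that fall into 4 groups and include 3 repeat arrays.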

How the data were processed

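Per the labels' protocols, RNA was column-purified and labelled with Cy3. The submitters' processing notes name Agilent Feature Extraction 10.7.3.1 as the software. The deposited scanner files hold, per the file headers, a background-subtracted and detrended signal intensity for each of 62976 spots. The series matrix deposited by the authors holds log2 values, checked here to have the same median (2.84) and 75th percentile (6.47) in each column, as after quantile normalization. The authors' normalization steps are not given in the sources used here.

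From the intensities, spots marked uneven were left out (166 to 270 per array), spots of a probe averaged, and the log2 of each array's 75th percentile subtracted. Symbols came from matching RefSeq accessions to a GRCm38.p6 table (28305 of 55634 probes). The arrays were designed on another build, so no coordinates of probes are given. Probes well above background on all arrays of a group were kept, with the brightest for each gene (15834 genes, 10971 with a symbol). Arrays with -2 at the end of the title were taken as repeats of the replicate named before it. The model in limma 3.58.1 (R 4.3.3) had 4 group means, a slide term and repeat arrays as a random block (correlation 0.0711), with 9 residual degrees of freedom. All adjusted p are Benjamini-Hochberg over all tested genes. The small number of arrays limits precision. The fit was tested on simulated data. Alternatives changed the background correction, normalization, filter, slide terms, replicate block, probe rule and replicates used. The files lack mean signals, so normexp used median signals.

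The members and lists were chosen with earlier results of these data known. Values are written out per replicate for 20 members fixed by name and for any member whose direction differed from most in its contrast, and the others are given by difference or count. Of other mitosis genes up to 8 per contrast with the largest differences past the threshold are named, of regulators up to 4, and of correlated genes 12; the genes named for the difference between responses are all that passed.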

Additional observations from a re-analysis of the deposited data

Results flagged for a closer look

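For 12 members the response to tumour material differed between the genotypes by the test of the difference itself (limma, adjusted p under 0.05; log2 response in transgenic minus that in wild-type cells, negative meaning a larger fall in transgenic cells). Among genes measured in every group, the values were -3.142 for Birc5, -3.117 for Ccnb2, -3.047 for Ccna2, -2.129 for Cdc20, -1.959 for Plk1, -1.709 for Mki67 and -1.559 for Aurka. Adjusted p ran from 0.00227 for Birc5 to 0.0464 for Aurka, and all 3 transgenic control replicates of each of these 7 lay above every other replicate. Genes that were dim in wild-type control and transgenic tumour gave -4.849 for Pbk, -4.71 for Sapcd2, -3.986 for Aunip, -3.484 for Ska1 and -2.271 for Bub1, sizes that include signals below background. These genes passed the filter through transgenic control alone, so their negative sign is partly set by it. The call of Birc5 stood without any 1 replicate. So did that of Ska1, which was dim in every group except transgenic control. The calls of the other 10 were lost without at least 1 replicate.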

How the results depend on the processing

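Directions of called members held in every alternative. With normexp background correction the medians shrank to 1.42 (transgene, control medium), -1.75 (tumour response, transgenic) and -1.41 (difference between responses), and 4 members were called lower in the wild-type response. Slide 2 alone gave a median of 2.84 for the transgene in control medium. It holds 1 array each of wild-type control, wild-type tumour and transgenic control, all of replicate 3, too few for calls. Slide 1 alone gave 7 members lower in the wild-type response. Slide column 4 took a larger detrending (root mean square 0.253 to 0.331 against 0.0964 to 0.126), and every array in it was transgenic. In control medium it held replicates 1 and 2, and with tumour material the second array for replicate 3. The larger detrending thus fell on transgenic samples only. Without these arrays the transgene median in control medium was 2.83, but transgenic control then rests on replicate 3 alone. With no slide term 1 member was higher in the wild-type response. With repeat arrays averaged it had 9 lower and the difference between responses 7. With no filter on dim probes, over all 33 members, these counts were 8 and 7. Among the 10 members above background on all arrays, 9 were higher in transgenic control, 5 lower in the wild-type and 10 in the transgenic response, and 6 passed for the difference between responses; fewer members were tested there.

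Leaving out 1 replicate at a time gave 13 to 23 members higher in transgenic control (medians 1.85 to 2.71), 0 to 3 higher with tumour material (medians -0.13 to 0.21), 4 to 17 lower and 0 to 1 higher in the wild-type response (medians -0.99 to -0.72), 19 to 25 lower in the transgenic response (medians -3.32 to -2.54) and 3 to 18 for the difference between responses (medians -2.56 to -1.65). The causes were not tested. Where a group keeps 1 replicate, it is assumed to vary like the others.

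Deviations of same-numbered samples from their group means correlated at -0.18 to 0.20 over all tested genes. With so few samples per group, these values cannot settle whether replicate numbers pair the samples. With the replicate block, 19 members were higher in transgenic control, 0 differed with tumour material, 14 were lower and 1 higher in the wild-type response, 24 were lower in the transgenic response and 11 passed for the difference between responses.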
